A study of Rattus norvegicus with 12 samples.

Results

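The comparison set jejunal mucosa of rats with short bowel syndrome (SBS) against jejunal mucosa of 1 sham-operated rat. Its members were chosen by their labels: the 4 SBS jejunal arrays and the only sham jejunal array, 5 of the 12 arrays of the series, while the other 7 came from ileum (4 SBS and 3 sham). SBS rats had lost 75% of the bowel to resection, and sham rats had the bowel cut and rejoined without loss of length. Both operations were done on male rats of the Sprague Dawley strain (Spraque Dawley in GEO's spelling), 6 per operation by the labels, and nucleic acid quality left fewer samples for the arrays. The sources used here give neither their age nor the time after surgery, nor the place along the jejunum where each sample was taken. Total RNA was converted to biotin-labelled cRNA and hybridised to Illumina RatRef-12 bead arrays, whose probes sit on coated beads (the labels also name Rat Quad BeadChips).

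Jejunum is the part of the small intestine where enterocytes, the absorptive cells of the villi, digest and take up most sugars, peptides and fats with enzymes and transporters of their brush border. Iron and regulated calcium uptake are known mainly from duodenum and proximal jejunum, whereas bile acids and the complex of intrinsic factor and vitamin B12 are taken up in ileum. After massive resection the remaining bowel is known to adapt: villi lengthen, crypts deepen and epithelial turnover rises. The study's title names platelet-derived growth factor (PDGF) as its question.

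Each value below is a level on the log2 scale of background-corrected, quantile-normalized signal unless another scale is named. With 1 sham array there is no sham spread. The limma fit over all 12 arrays therefore gave every group 1 shared spread per probe, on the assumption that the lone sham sample varies as the others do. A probe was called at a Benjamini-Hochberg adjusted p under 0.05 over 9137 probes detected on at least 3 of the 12 arrays. Nothing in the labels says more about how the replicates were raised, so p-values measure the spread between these samples only. In bulk mucosa, fewer cells of a type and less RNA per cell cannot be told apart. Animals are inferred from sample codes that the labels do not explain: with that reading, each SBS rat gave both a jejunal and an ileal sample, and the sham jejunal sample came from the rat of sham ileum 1.

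The arrays carried the enterocyte and regional transcripts that the labels call for, with exceptions on SBS jejunal arrays 1 and 4 and on the sham jejunal array. Vil1, the villin of microvilli, was at 9.52 to 10.01 on SBS jejunal arrays, against 9.87 on the sham jejunal array. Gata4, the transcription factor that marks duodenum and jejunum, was at 6.66 to 7.31 on SBS jejunal arrays, 6.56 on the sham jejunal array and 4.37 ± 0.15 and 4.36 ± 0.05 in SBS and sham ileum (SD, n = 4 and 3). Slc10a2, the ileal bile acid transporter, was at 4.41 to 4.96 on SBS jejunal arrays and 4.59 on the sham jejunal array, against 7.00 ± 0.23 in SBS ileum and 6.74 ± 0.25 in sham ileum. Fabp6, the ileal bile acid-binding protein, did not follow this order. It was at 5.98, 6.17, 7.17 and 13.57 on SBS jejunal arrays 1 to 4, against 11.51 on the sham jejunal array and 14.29 ± 0.11 and 14.45 ± 0.00 in SBS and sham ileum, where 14.45 is the top of the normalized scale. Of the jejunal arrays, SBS jejunal array 4 stood near ileum, the sham array lay lower, and the other 3 SBS arrays lay far below. Pnlip, the pancreatic lipase, was at 9.13 on SBS jejunal array 1, against 4.34 to 5.31 on the other SBS jejunal arrays and 4.37 on the sham array, and the mean level of 19 pancreatic markers was 5.81 on that array against 4.61 to 4.77 on the other 11. Without SBS jejunal array 1 the number of called probes was 150, and without array 4 it was 182, in place of 134 with all arrays. The sham jejunal array correlated across probes by 0.933 to 0.957 with the SBS jejunal arrays and by 0.946 to 0.965 with the ileal arrays, highest with sham ileum 1. What place along the jejunum contributed to the differences below was not tested.

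In jejunum, 134 of 9137 probes (1.47%) were called between SBS and sham: 58 (0.635%) were higher and 76 (0.832%) lower after resection, and 126 differed by over 2-fold. At an unadjusted p under 0.05 the number was 1084. For all 134 the sham array lay outside the range of the 4 SBS arrays, on normalized values and on the deposited signals. That criterion alone selects little, since the sham array lay outside the SBS range for 3754 probes (41.1%). Outside the range with a difference over 2-fold lay 448 probes (4.9%), of which 173 were higher and 275 lower in SBS. Of the called probes, 32 had no gene symbol, and the other 102 stood for 101 genes, 45 higher and 56 lower in SBS jejunum. Fitted on the 5 jejunal arrays alone, with 3 residual degrees of freedom, 21 probes were called (0.23%), of which 13 were among the 134. Of the 101 genes, 65 kept their call in each of the 11 fits that left out 1 array. Just 9 kept it in every alternative tried: Plb1, Cmahp, Fam151a, Cubn and Dnai7 among those lower, and Spink4, Slc11a2, Ldhd and Atp2b1 among those higher. With median scaling in place of quantile normalization the calls were 50 higher and 30 lower. Of the called genes described below, Slc5a12, Dnai7 and Enpep were detected on 3 of the 4 SBS jejunal arrays, Clu and Mx2 on 2, and Igfbp3 and Cd72 on 1, and background enters these SBS levels.

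**Figure D1:**
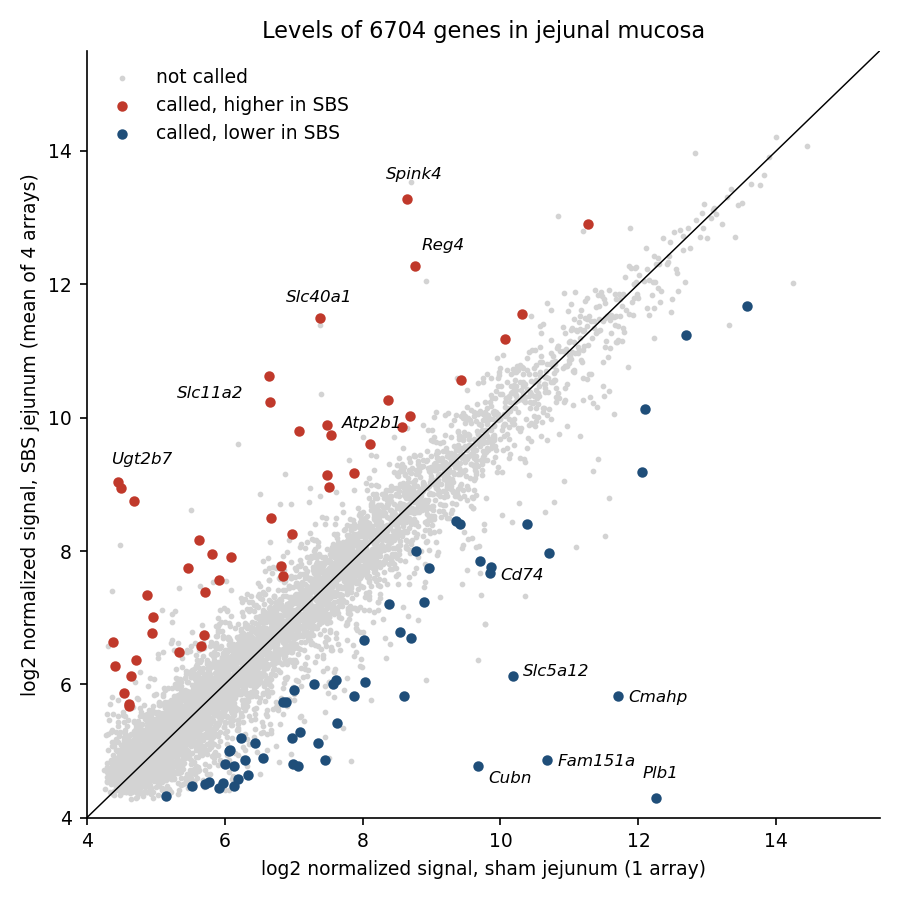
Log2 normalized signal of each of 6704 genes in SBS jejunum (vertical axis, mean of 4 arrays) against the sham jejunal array (horizontal axis). Grey points were not called, red points were called higher and blue points called lower in SBS, and the line marks equal levels. Plb1 lies far below the line at 4.3 in SBS against 12.26 in sham, and Spink4 far above it at 13.27 against 8.64.

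Some genes of the brush border fell, among them Plb1. Plb1, a phospholipase anchored in the brush border membrane, was at 4.34, 4.30, 4.28 and 4.28 on the 4 SBS jejunal arrays, against 12.26 on the sham array. As deposited signals these were 52.9, 50.2, 44.1 and 50.4 in SBS against 4792.9 in sham, and Plb1 was not detected on any SBS jejunal array, so that the level there was at least 179-fold lower (log2 difference -7.97 ± 0.43 SE, adjusted p = 4.66e-06 in limma). This bound sets the SBS arrays at the lowest detected signal of each array. Naaladl1, a brush border peptidase, was at 9.63, 8.55, 8.71 and 9.81 in SBS against 12.05 in sham, a log2 difference of -2.88 ± 0.45 (SE, adjusted p = 0.0101 in limma). Enpep, the aminopeptidase A that cleaves acidic residues, was at 4.48 to 5.54 in SBS against 7.35 in sham (adjusted p = 0.0477 in limma). Lct, lactase, was at 6.40, 4.83, 5.42 and 5.04 in SBS against 7.63 in sham, 4.61-fold lower (adjusted p = 0.0245 in limma). Of 14 measured brush border hydrolases among 24 listed, these 4 fell and none rose, beside 0.832% of all probes lower, and the median log2 difference of the 14 was -0.92, against 0.01 over all genes. Of the 14 differences 11 were negative and 3 positive. Mep1a, a meprin subunit, differed by -1.96 and Dpp4 by -0.97 without a call. Positive, also without a call, were Tmprss15 at 3.13, Enpp3 at 0.22 and Alpi, the intestinal alkaline phosphatase. Alpi had values of 12.12 to 13.64 in SBS against 10.83 in sham. The Enpep call was lost without any one of SBS ileum 1 or 4, SBS jejunum 1, 2 or 3, or sham ileum 1, 2 or 3 (adjusted p up to 0.0796), and that of Lct without SBS jejunum 3 (adjusted p = 0.0533).

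None of 7 measured structural genes of the microvillus was called. Of these, 6 had a negative log2 difference and 1 a positive one, with a median of -0.16 that was -0.04 under median scaling or without SBS jejunum 2 and -0.38 without SBS jejunum 1. Pls1, an actin-bundling plastin, differed by -0.55 and Myo1a, the brush border myosin, by -0.46, each with the sham array above the SBS range. Vil1 differed by -0.06 and Cdhr2, a microvillar protocadherin, by 0.27. Whether the list differed from the hydrolases was not tested. Fabp2, the cytosolic fatty acid-binding protein of enterocytes, was at 13.77 to 14.45 in SBS against 14.45 in sham. As 14.45 is the highest value of the normalized scale, no size of the difference can be read there.

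Of the transporters and receptors for sugars, monocarboxylates, amino acids and vitamins, 3 fell, beside 0.832% of all probes lower. Cubn encodes cubilin, the receptor for intrinsic factor carrying vitamin B12, and was at 4.85, 4.36, 4.74 and 5.13 in SBS jejunum against 9.67 in sham jejunum, 29.8-fold lower (adjusted p = 0.00659 in limma). It was detected on 1 of the 4 SBS jejunal arrays, so its SBS level rests in part on the background. Amn, the membrane partner of cubilin, was at 7.90 to 10.03 in SBS against 10.92 in sham and was not called (adjusted p = 0.188). Slc5a12, a sodium-coupled transporter of lactate and other monocarboxylates, was at 6.61, 4.56, 6.07 and 7.26 in SBS against 10.18 in sham (log2 difference -4.05 ± 0.70 SE, adjusted p = 0.0164 in limma), but a second kept probe for it differed by only 0.24. Slc1a1, a glutamate and aspartate transporter, was at 5.71 to 6.27 in SBS against 7.57 in sham (log2 difference -1.56, adjusted p = 0.0227). No member rose in the 3 lists, which held 9 measured sugar and monocarboxylate transporters (median log2 difference -0.65), 13 amino acid and peptide transporters (median -0.63) and 11 genes of cubilin and vitamin uptake (median -0.15). Slc5a1, the sodium-glucose transporter, differed by -1.05, and Slc2a5, the fructose transporter, by -1.27, neither with a call. Slc15a1, the peptide transporter, differed by -0.78 without a call.

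Other large reductions fell outside these lists. Cmahp, annotated for the hydroxylase that makes N-glycolylneuraminic acid, was at 5.97, 5.30, 6.00 and 6.04 in SBS jejunum against 11.70 in sham jejunum, 58.5-fold lower (adjusted p = 0.000365 in limma). Fam151a was at 4.64, 4.47, 4.87 and 5.49 in SBS against 10.68 in sham, 56.2-fold lower (adjusted p = 5.71e-06), with 2 of the 4 SBS arrays detected. Clu, the secreted chaperone clusterin, was at 4.59 to 5.33 in SBS against 6.99 in sham (adjusted p = 0.0386), and Scin, an actin-severing protein, at 7.45 to 8.10 against 9.86 (adjusted p = 0.0236). Prss23, a serine protease, was 6.80-fold lower in SBS and Dnai7, named for a dynein intermediate chain, 4.94-fold lower. The Clu call was lost without SBS ileum 3, SBS jejunum 1, 2 or 4 or sham ileum 3 (adjusted p up to 0.0817), and the Scin call without SBS jejunum 2 (adjusted p = 0.0501).

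**Figure D2:**
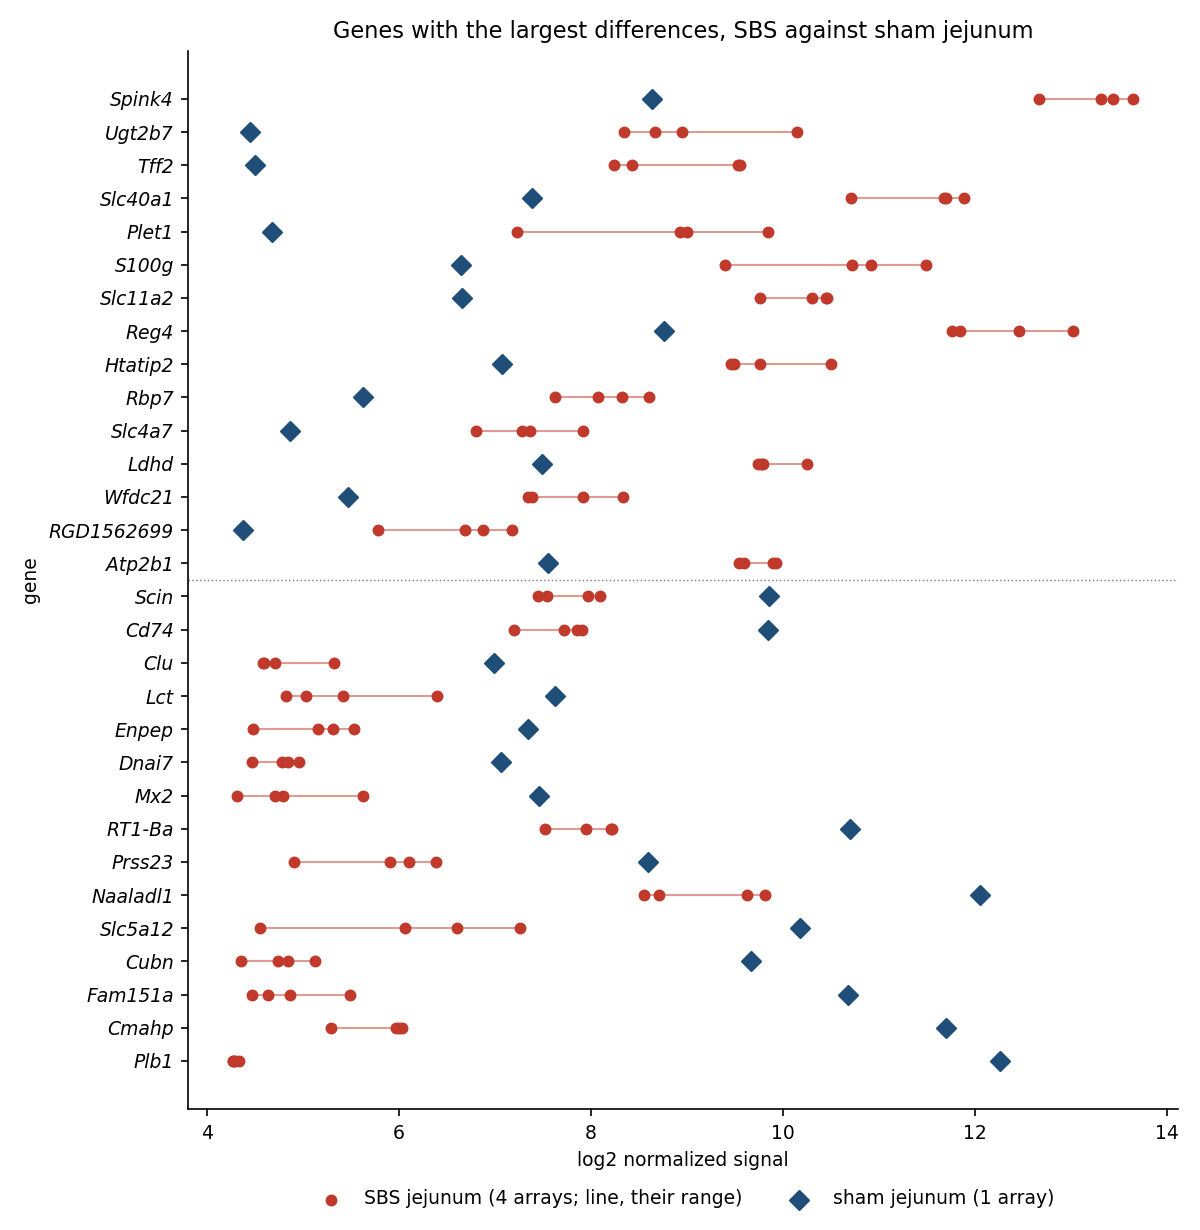
Log2 normalized signals (horizontal axis) of the 15 called genes with the largest positive and the 15 with the largest negative log2 difference (vertical axis), with 4 SBS jejunal arrays as red circles, their range as a line, and the sham jejunal array as a blue diamond. The diamond lies outside the range of the circles for each gene, below it in the upper block and above it in the lower one.

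Of the genes that move iron and calcium through the enterocyte, 2 of each kind rose and the others were not called. Slc11a2 encodes the divalent metal transporter that takes up ferrous iron at the brush border, and was at 10.30, 10.46, 9.76 and 10.45 in SBS jejunum against 6.66 in sham jejunum (log2 difference 3.58 ± 0.36 SE, adjusted p = 0.000812 in limma). Slc40a1 encodes ferroportin, the exporter that passes iron on to blood, and was at 11.68, 11.70, 11.89 and 10.71 in SBS against 7.39 in sham, 17.2-fold higher (adjusted p = 0.044). These 2 rose and none fell among 15 measured genes of iron and trace metals (median log2 difference 0.25), beside 0.635% of all probes higher. Heph, the ferroxidase that works with ferroportin, differed by 0.55, Tfrc, the transferrin receptor, by 0.46, and Mt1, a metallothionein, by -1.92, each without a call. S100g, the cytosolic calcium carrier calbindin-D9k, was at 10.72, 10.92, 11.49 and 9.40 in SBS against 6.65 in sham, 15.8-fold higher (adjusted p = 0.0492). Atp2b1, the basolateral calcium pump, was at 9.93, 9.59, 9.54 and 9.90 in SBS against 7.55 in sham, 4.56-fold higher (adjusted p = 0.00203). Trpv6, the apical calcium channel, and Vdr, the vitamin D receptor, were not called, among 7 measured genes of calcium and phosphate handling (median 0.19).

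The calls of Slc40a1 and S100g were the less firm of these 4. Slc40a1 lost its call without SBS ileum 3 or 4, SBS jejunum 1, 2 or 3 or sham ileum 3 (adjusted p up to 0.0923). S100g lost it without any one SBS ileal array, SBS jejunum 1, 2 or 3 or sham ileum 3 (adjusted p up to 0.104). The sham jejunal level of Slc40a1 lay within the range of the ileal arrays and that of S100g below all 7, the lowest of which was at 6.71. In ileum Slc40a1 averaged 7.59 ± 0.93 in SBS and 7.16 ± 1.35 in sham rats and S100g 8.60 ± 0.64 in SBS and 7.71 ± 1.31 in sham rats (SD, n = 4 and 3). Sham ileum 2 held the highest sham ileal values, 8.72 for Slc40a1 and 9.20 for S100g, and all 4 SBS jejunal arrays stood above every ileal array for both genes. Sham ileum 2 was also the highest sham ileal array for Tff2, Reg4 and Ugt2b7, at 5.54, 10.08 and 6.71.

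**Figure D3:**
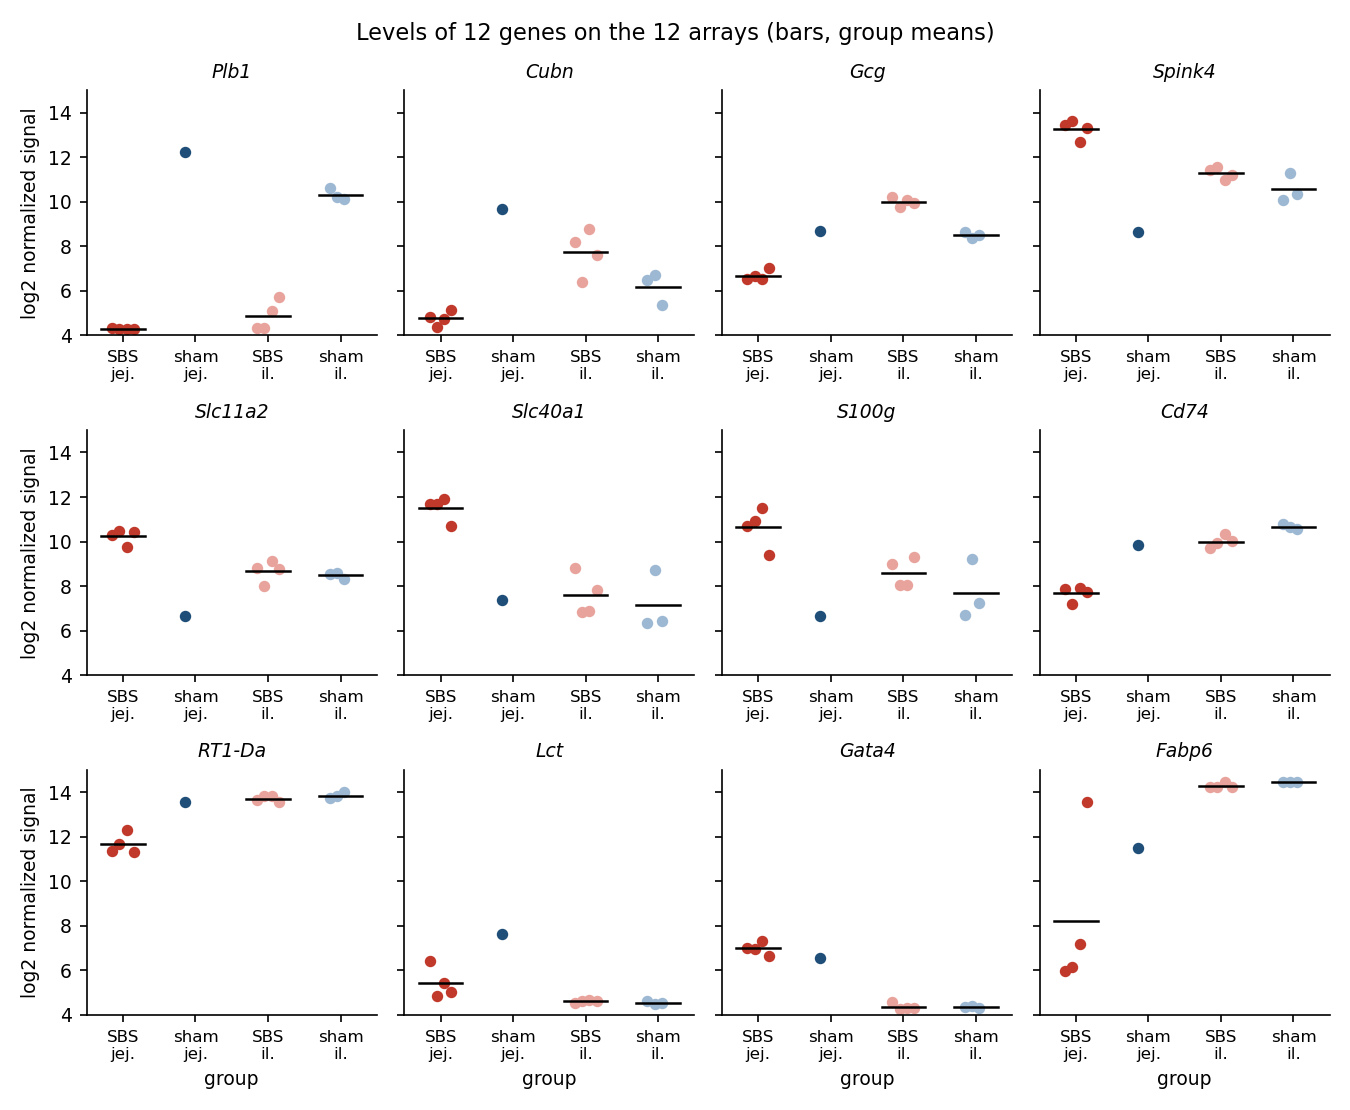
Log2 normalized signal (vertical axis) of 12 genes in SBS jejunum, sham jejunum, SBS ileum and sham ileum (jej., il.), 1 point per array, with group means as bars. The sham jejunal point lies with the ileal points for Cd74 and RT1-Da and below the SBS jejunal points for Spink4, Slc11a2, Slc40a1 and S100g, and Fabp6 shows 1 of the 4 SBS jejunal arrays near ileum.

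Genes of lipid and cholesterol metabolism were mostly above the sham value, with few calls. Fdft1, squalene synthase, was at 7.61, 7.45, 7.30 and 7.90 in SBS jejunum against 5.92 in sham jejunum, 3.12-fold higher (adjusted p = 0.0397 in limma). It was the 1 called gene of 16 measured in cholesterol synthesis and uptake, all 16 of which had a positive log2 difference (median 0.87), while 51.1% of all genes did. Sqle, squalene epoxidase, was at 7.33 to 7.57 in SBS against 5.64 in sham without a call (adjusted p = 0.0917). Of 19 measured genes of fatty acid oxidation and ketogenesis, 16 had a positive difference (median 0.54) and 2 rose, beside 0.635% of all probes higher. These were Cpt1a, which admits long-chain fatty acids to mitochondria, at 8.97 to 9.39 in SBS against 7.88 in sham (adjusted p = 0.0103), and Bdh1, a ketone body dehydrogenase, at 7.58 to 7.74 against 6.84 (adjusted p = 0.0397). The 42 measured genes of the respiratory chain and ATP synthase held no call, and 40 were positive with a median of only 0.22. The Fdft1 call was lost without SBS ileum 2, SBS jejunum 1, 2 or 3 or any one sham ileal array (adjusted p up to 0.07), and that of Bdh1 without SBS ileum 1 or 2, SBS jejunum 2 or 3 or any one sham ileal array (adjusted p up to 0.0757). In fat absorption and chylomicron assembly none of 19 measured genes was called, and the sign of their median, -0.11, turned under median scaling and without SBS jejunum 4.

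Conjugation and antioxidant enzymes rose in part. Ugt2b7, a glucuronosyltransferase, was at 8.95, 10.15, 8.67 and 8.35 in SBS jejunum and undetected in sham jejunum at 4.45, at least 19.8-fold higher (adjusted p = 0.0227 in limma). Gstp1, a glutathione transferase, was at 9.95 to 10.63 in SBS against 8.37 in sham, 3.70-fold higher (adjusted p = 0.0208). These 2 rose among 27 measured conjugation enzymes, beside 0.635% of all probes higher, and no other member was called. A positive difference was found for 23 of the 27 (median 0.59). Hmox1, the heme-degrading oxygenase, was at 8.12, 8.48, 7.76 and 7.43 in SBS against 5.82 in sham, 4.37-fold higher (adjusted p = 0.024). Txn1, thioredoxin, was 2.81-fold higher in SBS (adjusted p = 0.0227), and Gpx4, which reduces lipid peroxides, 2.52-fold higher (adjusted p = 0.0272). Together 3 of 17 measured antioxidant genes rose, beside 0.635% of all probes higher, none fell, and the median was 0.70. Gclc, the catalytic subunit of glutathione synthesis, differed by -0.45 and Cat, catalase, by 0.06, neither with a call. The Gpx4 call was lost without SBS jejunum 2 or sham ileum 2 (adjusted p up to 0.0603).

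Peptides of mucus-secreting cells rose in part. Spink4, a protease inhibitor-like peptide of goblet cells, was at 13.44, 13.64, 12.67 and 13.31 in SBS jejunum against 8.64 in sham jejunum, 24.7-fold higher (log2 difference 4.63 ± 0.43 SE, adjusted p = 0.000416 in limma). Its deposited signals were 6239.9 to 12851.3 in SBS against 420.5 in sham. Tff2, the trefoil peptide known from gastric mucous neck cells and the Brunner's glands of duodenum, was at 9.55, 8.43, 8.24 and 9.53 in SBS and undetected in sham at 4.50, at least 18.5-fold higher (adjusted p = 0.0111). Reg4, a secreted lectin of secretory cells, was at 12.46, 13.02, 11.76 and 11.84 in SBS against 8.76 in sham, 11.4-fold higher (adjusted p = 0.0208). Tff1, a further trefoil peptide, was at 5.48 to 5.87 in SBS and undetected in sham, at least 1.97-fold higher (adjusted p = 0.0164). These 4 rose among 16 measured genes on the same list, beside 0.635% of all probes higher, and the other 12 were not called. Among them Tff3 differed by 0.35, Clca1 by -0.20, Agr2 by 0.56, Creb3l1 by 1.0, Retnlb by 0.94 and Atoh1, the secretory lineage factor, by -0.01. Of the 16 differences 9 were positive and 7 negative, with a median of 0.45. Of stomach markers, 4 of 7 were undetected on all 5 jejunal arrays and the mean level of the 7 was 4.96 to 5.14 in SBS and 4.98 in sham. Reg1a, a secreted lectin outside this list, was at 13.90, 13.50, 12.48 and 14.24 in SBS against 8.71 in sham and was not called (adjusted p = 0.308). The part of Brunner's glands in these values was not tested.

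Tuft and endocrine cells gave reductions of single markers. Plcg2, a phospholipase of tuft cell and B cell signalling, was at 5.99, 5.24, 6.01 and 6.03 in SBS jejunum against 7.88 in sham jejunum, 4.18-fold lower (adjusted p = 0.0175 in limma). Pou2f3, the transcription factor of tuft cells, was undetected on the 4 SBS arrays at 4.28 to 4.42 and at 5.15 in sham, at least 1.30-fold lower (adjusted p = 0.0418). All 8 measured tuft genes had a negative difference, 2 of them with a call, beside 0.832% of all probes lower. The median of the 8 was -0.39, and it was -0.24 on the series matrix and -0.18 with an offset of 50. Gcg, the precursor of glucagon-like peptides 1 and 2, was at 6.55, 6.66, 6.52 and 7.02 in SBS against 8.70 in sham, 4.03-fold lower (adjusted p = 0.00203). It was the 1 called gene of 17 measured enteroendocrine genes, whose median was 0.01. Nts, neurotensin, was at 5.00 to 7.23 in SBS against 9.68 in sham without a call (adjusted p = 0.0684), and Cck, cholecystokinin, was at 7.06 to 7.93 against 5.83 without a call (adjusted p = 0.186). The Pou2f3 call was lost without SBS ileum 1, 3 or 4, SBS jejunum 1, 2 or 3 or sham ileum 1 or 3 (adjusted p up to 0.0894).

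Crypt, proliferation and growth factor genes held few calls. None of 37 measured genes of DNA replication and mitosis was called, and their median log2 difference was -0.27, against -0.01 without SBS jejunum 1 and -0.12 with an offset of 50, with Pcna at 0.19 and Mcm6 at -0.64. Of 15 measured stem and progenitor genes, 1 rose: Plet1, a surface protein known from hair follicle and gut progenitors in mouse, at 8.93, 9.0, 7.23 and 9.84 in SBS jejunum and undetected in sham jejunum at 4.68, at least 16.3-fold higher (adjusted p = 0.0118 in limma). Of 7 listed PDGF genes, 6 were on the array and 2 of these passed the detection filter. Pdgfa, the ligand in the study's title, was at 9.23, 8.40, 8.68 and 8.72 in SBS against 9.52 in sham, a log2 difference of -0.77 ± 0.37 (SE) that was not called (adjusted p = 0.449). Pdgfra, its receptor, was at 4.47 to 4.79 in SBS against 5.22 in sham, also not called (adjusted p = 0.294). Igfbp3, an insulin-like growth factor carrier, was the 1 called gene of 26 measured in other growth factor pathways, at 4.43 to 4.67 in SBS against 5.78 in sham (adjusted p = 0.0392). That call was lost without SBS ileum 3, SBS jejunum 1, 2 or 3 or sham ileum 1 (adjusted p up to 0.0827). Bok, a pro-apoptotic member of the Bcl-2 family, was at 7.16 to 7.50 in SBS against 5.72 in sham (adjusted p = 0.0118), the 1 call among 24 measured apoptosis genes (median 0.12).

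**Figure D4:**
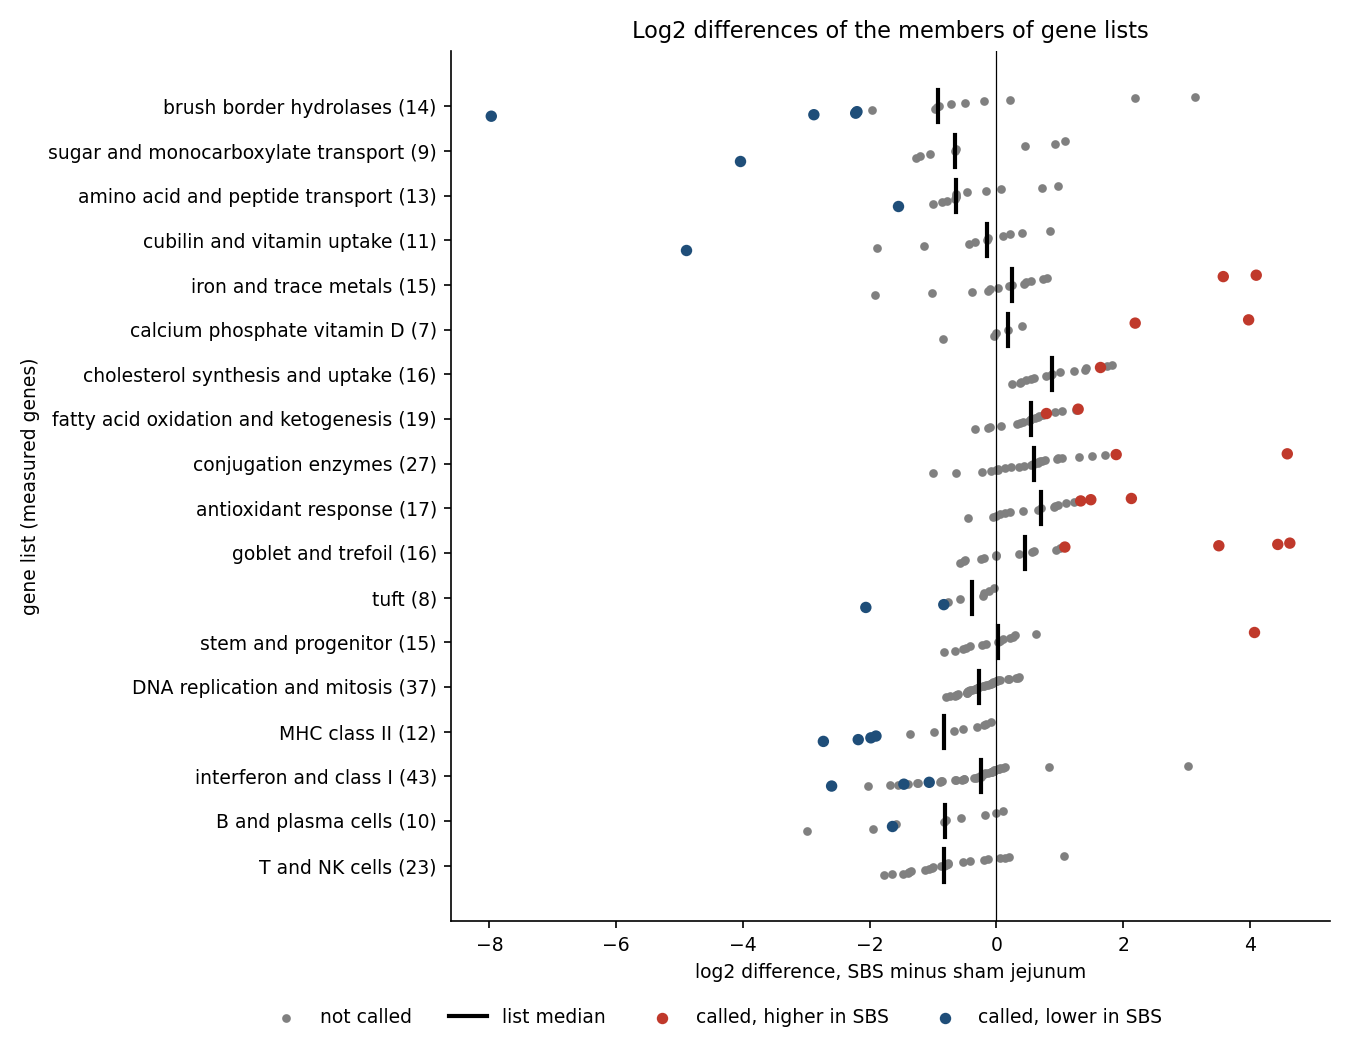
Log2 difference, SBS minus sham jejunum (horizontal axis), of every measured gene of 18 lists (vertical axis, number of measured genes in brackets), called genes in colour and list medians as black bars. Brush border hydrolases, MHC class II and lymphocyte lists have medians of -0.81 or lower and cholesterol synthesis has one of 0.87, while single genes carry the calls in iron, calcium and goblet lists.

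Major histocompatibility complex (MHC) class II genes present antigen to helper T cells and are known to be expressed by villus enterocytes as well as immune cells. Of 12 measured genes of the list 4 fell, beside 0.832% of all probes lower, and the other 8 were not called. Cd74, the invariant chain, was at 7.86, 7.20, 7.91 and 7.72 in SBS jejunum against 9.85 in sham jejunum, 4.54-fold lower (log2 difference -2.18 ± 0.28 SE, adjusted p = 0.00368 in limma). RT1-Ba, an alpha chain, was at 8.22, 7.52, 7.95 and 8.21 in SBS against 10.70 in sham, 6.63-fold lower (adjusted p = 0.0118). RT1-Da, the alpha chain of the other class II pair, was at 11.37, 11.68, 12.30 and 11.33 in SBS against 13.57 in sham (adjusted p = 0.0118), and RT1-Db1, its beta chain, at 8.03, 8.22, 8.99 and 8.40 against 10.39 (adjusted p = 0.0164). All 12 had a negative difference, while 51.1% of all genes had a positive one. Their median was -0.83, and it was -0.53 on the series matrix and -0.43 with an offset of 50. Ciita, the coactivator that class II promoters need, differed by -0.98 (adjusted p = 0.121) and RT1-DMb, a peptide-loading chain, by -1.37 (adjusted p = 0.0649), neither with a call. RT1 genes are a polymorphic family, and the probes may read more than 1 gene or allele of it.

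Promoters of class II genes are known for a conserved pair of elements, the X and Y boxes. They are shown for the 3 of the 4 called genes of the list whose promoters held both. Windows of 110 bases from RefSeq (rat build GRCr8), written 5′ to 3′ on the gene's own strand between -130 and -21 relative to the gene start, have the X core GCAAC and the Y core ATTGG in capitals. The windows are chr20:4576927-4577036 (plus strand) for RT1-Ba, chr20:4515285-4515394 (plus strand) for RT1-Da and chr20:4560183-4560292 (minus strand) for RT1-Db1.
RT1-Ba: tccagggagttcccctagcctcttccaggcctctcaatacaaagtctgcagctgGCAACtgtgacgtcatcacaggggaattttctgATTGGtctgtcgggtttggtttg
RT1-Da: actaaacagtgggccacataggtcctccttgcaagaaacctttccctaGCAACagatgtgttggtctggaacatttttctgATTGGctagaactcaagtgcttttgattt
RT1-Db1: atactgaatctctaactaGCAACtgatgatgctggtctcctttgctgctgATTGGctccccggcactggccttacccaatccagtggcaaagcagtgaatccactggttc
The X core started at -76, -82 and -112 and was followed by the Y core after 28, 28 and 27 bases in RT1-Ba, RT1-Da and RT1-Db1. GCAAC followed by ATTGG at a distance of 15 to 40 bases was found on either strand in 1.15% of 33469 promoters of 300 bases, GCAAC alone in 35.1% and ATTGG alone in 37.5%. Cd74 had GCAAC at -70 without ATTGG at that distance. These motifs were chosen after the class II values were seen, and a match is a description of letters only.

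Interferon-induced and class I genes fell in single cases. Mx2, an interferon-induced GTPase, was at 4.71, 4.80, 5.63 and 4.32 in SBS jejunum against 7.46 in sham jejunum, 6.05-fold lower (adjusted p = 0.0177 in limma). Ifi44 was 2.08-fold lower in SBS (adjusted p = 0.0265) and RT1-N3, a class I gene, was at 4.33 to 4.83 in SBS, with 1 of 4 arrays detected, against 5.98 in sham (adjusted p = 0.0103). These 3 fell among 43 measured genes, beside 0.832% of all probes lower, and the other 40 were not called. The median was -0.25, and B2m, the shared light chain of class I, differed by -0.09.

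Lymphocyte markers were lower in SBS jejunum on most probes, with 1 call. Cd72, a B cell surface receptor, was at 4.34 to 4.65 in SBS against 6.13 in sham (adjusted p = 0.0418 in limma). Without any one SBS ileal array, SBS jejunum 1, 2 or 3 or sham ileum 2 the call was lost (adjusted p up to 0.0894). Negative differences were found for 9 of the 10 B and plasma cell genes measured (median -0.81). Of 23 measured T and natural killer cell genes, 19 were negative, 4 were positive and none was called (median -0.82). The positive ones were Cd3g at 1.06, Klrk1 at 0.20, Cd3e at 0.13 and Cd96 at 0.06. Ptprc, the general leukocyte marker CD45, was at 4.68 to 5.15 in SBS against 6.54 in sham (adjusted p = 0.137). On the series matrix the B and plasma cell median was -0.41, as with an offset of 50, and the T and natural killer cell median was -0.53. The mean level of the 18 B and plasma cell markers on the array was 4.49 to 4.58 in SBS and 5.13 in sham, and that of the 35 T and natural killer cell markers was 5.07 to 5.53 in SBS and 5.81 in sham. On all 5 jejunal arrays 8 of the 18 and 11 of the 35 were undetected. The SBS means of the B and plasma cell markers lay below the lowest detected level of each array (4.64 to 4.90), so background enters them. The lymphocyte markers moved with the class II genes, and their part in that result was not tested. Il15, a cytokine that maintains intraepithelial lymphocytes, was 2.93-fold lower in SBS (adjusted p = 0.0227), and Ccl6, a chemokine known from rodents, was undetected on the SBS arrays and at least 1.93-fold lower (adjusted p = 0.0227).

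Set beside ileum, where 268 probes (2.93%) were called between SBS and sham, the jejunal calls overlapped in part. Called in both regions were 35 probes, 26.1% of the jejunal calls and 13.1% of the ileal ones, and 34 of the 35 had the same direction, 30 lower and 4 higher in SBS. Plb1 fell in ileum too, to 4.87 ± 0.69 in SBS ileum (SD, n = 4) against 10.33 ± 0.25 in sham ileum (SD, n = 3). Clu was at 4.76 ± 0.37 in SBS ileum against 7.75 ± 0.69 in sham ileum, and Cd72 at 4.48 ± 0.12 against 6.35 ± 0.66, both called. Cd74, by contrast, was at 9.99 ± 0.25 in SBS ileum against 10.66 ± 0.13 in sham ileum without a call (adjusted p = 0.0849 in limma), and the difference of its jejunal and ileal effects, -1.51, was not called either (adjusted p = 0.161).

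The difference of the effects, jejunal minus ileal, was called for 17 probes (0.186%), 9 above and 8 below 0. With the animal as a random replicate block it was called for 33. At an unadjusted p under 0.05 the number was 500. Cubn gave the lowest, -6.45 ± 0.85 (SE, adjusted p = 0.00882 in limma): in ileum it was at 7.74 ± 1.02 in SBS against 6.19 ± 0.71 in sham (SD, n = 4 and 3), a difference that was not called. Gcg differed by -3.50 ± 0.28 (SE, adjusted p = 0.000184), with opposite directions that were both called, since in ileum it rose, at 10.22, 9.75, 10.09 and 9.93 in SBS against 8.65, 8.38 and 8.51 in sham. Fam151a, at 4.56 in both ileal groups, differed by -5.81 and Cmahp by -5.02. On the other side stood Spink4 at 3.90 ± 0.52 (SE, adjusted p = 0.00882), Slc11a2 at 3.39 ± 0.43 (adjusted p = 0.00882), Wfdc21 at 3.32, Htatip2 at 2.69, Atp2b1 at 2.36, Fntb at 2.09 and Bok at 1.97. Fntb was undetected on the sham jejunal array, so background enters its value. For Slc40a1, S100g, Tff2, Reg4 and Ugt2b7 the difference of effects was not called (adjusted p = 0.367, 0.606, 0.116, 0.192 and 0.125). Without sham ileum 1 the number called was 30, without SBS jejunum 1 it was 27 and without SBS jejunum 4 it was 26, whereas without sham ileum 2, SBS ileum 3 or sham ileum 3 it was 8, 9 and 10.

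**Figure D5:**
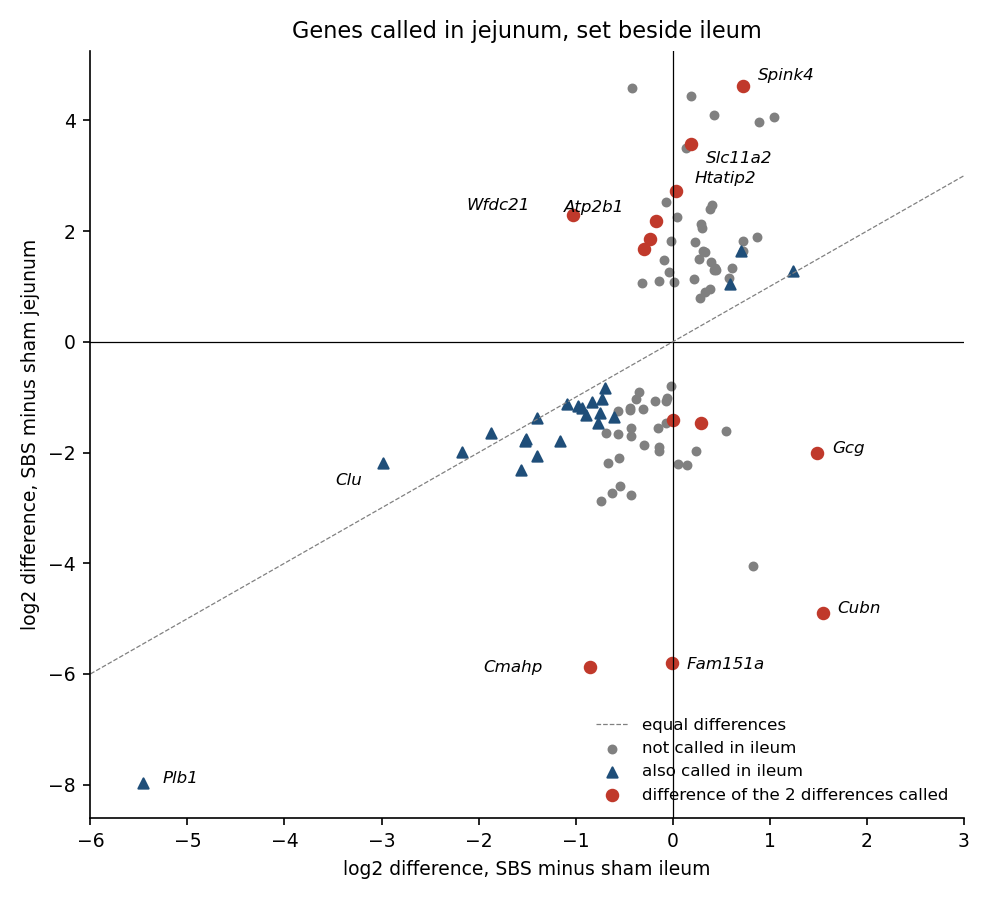
Log2 difference, SBS minus sham, in jejunum (vertical axis) and ileum (horizontal axis) for the 101 genes called in jejunum. Red circles mark genes whose difference of effects was called, blue triangles other genes also called in ileum, grey points the rest, and the dashed line equal differences. Plb1 and Clu fell in both regions, and Cubn and Gcg stand at opposite signs.

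Where the sham jejunal array stood among all arrays also differed from gene to gene. For 69 of the 134 called probes its value lay within the range of the 7 ileal arrays, as it did for 6578 of all 9137 probes, and for 96 of the 134 all 4 SBS jejunal values lay beyond that range on the same side, as they did for 900 of all 9137. Cd74, Slc40a1, Tff2 and Reg4 had both features. Sham jejunum differed from sham ileum by a call for 57 probes, 9 of which were among the 134. Fam151a and Lct were of this kind, both higher in sham jejunum than in sham ileum. Fdft1 was too, but lower in sham jejunum, at 5.92 against 7.93 ± 0.06 in sham ileum (SD, n = 3, adjusted p = 0.0277 in limma). Its sham jejunal value, like those of Sqle and Plet1, lay below every SBS jejunal and ileal array. Lct was undetected on all 3 sham ileal arrays, so that it was at least 7.67-fold higher in sham jejunum (adjusted p = 0.00627 in limma). Fam151a was detected on 1 of the 3, and its log2 difference of 6.12 (adjusted p = 9.25e-06) rests in part on the background.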

How the data were processed

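In the deposited signal table each probe has a linear bead intensity, whose distribution differs between arrays, and a detection p-value, also deposited. The reported levels and calls were computed from these deposited signals. The deposited series matrix also holds log2 values, which served only as an alternative to them. Quantile normalizing the uncorrected log2 signals came within 0.012 of the series matrix, where the median of every array was 5.862. The sources used here do not name the scanner software or any background step of the authors. No value column was left out.

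With neqc in limma 3.58.1 (R 4.3.3), normexp correction took its background from the detection p-values and an offset of 16 was added. Signals were then quantile normalized and taken to log2. Arrays detected 7041 to 8821 of 22517 probes (p under 0.05), and their number limits the precision. The 9137 probes detected on at least 3 arrays were fitted with 1 mean per group over 12 arrays (lmFit, eBayes), two-sided, with Benjamini-Hochberg adjustment. A gene was read from its probe with the highest mean signal. Symbols came from the array annotation, updated by Entrez identifier, and 8730 probes had none. In simulated data with independent errors, 18% of log2 changes of 1 and 86% of those of 2 were found in the jejunal comparison. A fold of at least N sets undetected arrays at the lowest detected signal.

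The gene lists (55), the rule for named genes (15 per direction by size, 4 per list, every called member, the PDGF genes, 5 per direction for the difference of effects) and the comparison itself were chosen with earlier results of these data known. Same-numbered SBS jejunal and ileal arrays, taken as the same rat by their codes, deviated together from their group means (r = 0.659, 0.467, 0.192 and 0.442 across probes). Alternatives were other backgrounds, scalings, filters, a replicate block, array weights, the jejunal arrays alone and leaving out each array but the sham jejunal one.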

Additional observations from a re-analysis of the deposited data

Results flagged for a closer look

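Resection effects that differed between jejunum and ileum by the test of the difference itself were found for 13 genes with a symbol. The jejunal minus ileal log2 difference was -6.45 for Cubn, -5.81 for Fam151a, -5.02 for Cmahp, -3.50 for Gcg, -1.76 for Tlcd4 and -1.42 for Slit1. It was 3.90 for Spink4, 3.39 for Slc11a2, 3.32 for Wfdc21, 2.69 for Htatip2, 2.36 for Atp2b1, 2.09 for Fntb and 1.97 for Bok. Each of them rests on the 1 sham jejunal array. Tlcd4 was undetected on every SBS jejunal array, Fntb on the sham jejunal array and Slit1 on every ileal array. Slit1 was detected on 3 SBS jejunal arrays, Fam151a on 2 and Cubn on 1. Background enters the sizes for these genes.

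In 10 of the 101 called genes 1 of the 4 SBS jejunal arrays stood apart from the other 3. The gap was above Dixon's critical value as a share of the range, and chance gives about 1 in 20 groups. This share does not measure the size of the gap. The gap was 0.901 of the range for Cmahp and 0.943 for Plcg2, both with SBS jejunum 2 apart. SBS jejunum 3 stood apart for Clu (0.832), Gpx4 (0.833) and Dnmt3a (0.867), SBS jejunum 1 for Ldhd (0.913) and Dnajc25 (0.904), and SBS jejunum 4 for Pou2f3 (0.929), Ifi44 (0.862) and Asb2 (0.851). Pou2f3 was undetected on all 4 SBS jejunal arrays, so its gap lies within background, and Clu was detected on 2 of them.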

How the results depend on the processing

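No called gene changed direction under any alternative. Of 134 calls (58 higher, 76 lower), the 5 jejunal arrays alone gave 21 (10 higher, 11 lower), median scaling 80 (30 lower), no filter 77 (33 higher, 44 lower) and array weights 244 (112 higher, 132 lower); the counts with the sham array outside the SBS range were the same 21, 80, 77 and 244. Fewer arrays enter the first and more probes the third; otherwise the cause was not tested. With the animal as a random replicate block 189 probes were called, and the difference of effects was called for 33 probes in place of 17, and for 51 with array weights. Leaving out 1 array gave 97 to 182 calls, 47 to 101 higher, 49 to 89 lower, and 8 to 30 for the difference of effects. Of the 101 called genes, 90 lost the call on the jejunal arrays alone (adjusted p 0.0734 to 0.326), 49 under median scaling, 52 without a filter, 19 on the series matrix, 19 with an offset of 50, 7 with the jejunal filter and 5 with the block. The single sham array cannot be left out, and its own deviation cannot be told apart from the effect of resection. Further list medians moved by over 1.5 times, among them the following. On the series matrix they went to -0.40 for amino acid and peptide transport, to 0.09 for calcium and phosphate and to -0.09 for cubilin and vitamin uptake. The last was -0.43 without SBS jejunum 1 and -0.03 without SBS jejunum 2 or 4. Without SBS jejunum 4 the median was 0.11 for iron and trace metals. For the respiratory chain it was 0.34 under median scaling, and for apoptosis 0.07 with the block. The enteroendocrine median turned to -0.02 with array weights.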

Other observations

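Other called genes of known function stood outside the gene groups above. Among those higher in SBS jejunum, Slc4a7, a sodium bicarbonate cotransporter, was at 7.92, 7.28, 7.37 and 6.80 in SBS against 4.87 in sham, 5.56-fold higher (adjusted p = 0.00985 in limma). Car8, a carbonic anhydrase-related protein, was 4.14-fold higher (adjusted p = 0.00506). Lypd8, a protein known in mouse to keep bacteria from the colonic epithelium, was at 12.56, 13.29, 12.90 and 12.85 in SBS against 11.27 in sham (adjusted p = 0.0103). Timp1, an inhibitor of matrix metalloproteinases, was at 7.51 to 8.31 in SBS against 6.10 in sham (adjusted p = 0.0213), and Tnfsf13, the B cell cytokine APRIL, at 8.27 to 8.98 against 6.67 (adjusted p = 0.0111).

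Among those lower in SBS jejunum, Guca2a, the precursor of guanylin, which stimulates chloride and fluid secretion, was at 10.93, 9.59, 10.23 and 9.76 in SBS against 12.10 in sham, and its call (adjusted p = 0.0448 in limma) was lost without SBS ileum 2, 3 or 4, SBS jejunum 2, 3 or 4 or any one sham ileal array (adjusted p up to 0.0791). Aoc1, the diamine oxidase that degrades histamine, was at 10.76 to 11.51 in SBS against 12.69 in sham (adjusted p = 0.0214). Dnmt3a, a DNA methyltransferase, was at 5.80 to 6.09 in SBS against 7.29 in sham (adjusted p = 0.00368) and was lower in SBS ileum too (log2 difference -0.75, adjusted p = 0.00666). By detection alone, 118 of all 22517 probes were detected on all 4 SBS jejunal arrays and not on the sham array. On the sham array and on none of the SBS jejunal arrays, 305 were detected. The first count asks for detection on 4 arrays and the second on the single sham array, so the counts cannot be compared. Neither was tested, and at a detection p under 0.05 probes without expression can enter both.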
